A study of Mus musculus with 12 samples.

Results

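The effect of amygdala stimulation on gene expression in ventral CA1 was taken as the mean of 2 groups of slices that received both strong tetanization and basolateral amygdala stimulation, against slices tetanized only. The comparison used 9 of the 12 RNA sequencing libraries of the study, 6 with amygdala stimulation and 3 without, and covered all 19492 genes with enough reads to be tested. All slices came from wild-type male C57BL/6J mice aged 5 to 7 weeks. Acute horizontal slices of 400 µm were kept for at least 3 h before the experiment, frozen 30 min after it, and an area of 1 mm2 at the electrodes was cut out, with 6 slices pooled into each library. STET slices (libraries STET 1 to 3) received 3 trains of 100 pulses at 100 Hz, a protocol that gives late long-term potentiation. The STET_S100 and STET_S200 groups (3 libraries each) received the same tetanization and, in addition, stimulation of the basolateral amygdala labelled as 100 Hz or 200 Hz. For STET_S200 the label gives 200 Hz and then pulses at 100 Hz in brackets, so that the rate is stated in 2 ways, and the group is called here by its name. Control slices (3 libraries), with basal stimulation only, are given where they help to read a level and entered no contrast. Each mouse gave 1 slice to each group, but nothing in the labels ties equal replicate numbers to the same animals. Each library is a pool, and p-values measure the spread between such pools.

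As background, ventral CA1 receives fibres from the basolateral amygdala, a region that processes emotional value, and activity in these fibres can alter how long potentiation at hippocampal synapses lasts. Strong tetanization activates transcription within minutes: immediate early genes such as Fos, Arc and Npas4 are switched on first, and genes for secreted and synaptic proteins follow. Late potentiation also needs protein synthesis, which rests on ribosomes, each built from ribosomal RNA and a fixed set of proteins, and on the ATP made by oxidative phosphorylation. The series design asks how the state of transcription after late potentiation differs when the amygdala is stimulated as well. The contrast described here addresses what both amygdala rates have in common.

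Total counts in the 9 libraries ran from 36.8 to 50.3 M. Markers of the labelled tissue were present: the 8 markers of CA1 pyramidal cells had reads in every library, and their summed level was 1255 to 1347 CPM in STET and 1258 to 1460 CPM with amygdala stimulation (CPM, the count relative to the scaled total of its library). Dentate gyrus markers summed to 99.5 to 224 CPM. Libraries of the 2 arms differed in RNA of neighbouring or foreign tissue. The 14 markers of choroid plexus and ependyma summed to 302, 2522 and 515 CPM in STET, 2098, 3166 and 40.6 CPM in STET_S100 and 31.5, 24.9 and 72.8 CPM in STET_S200, with 2 of the 14 at 0 in STET_S200 2 and none at 0 elsewhere. Fabp4, a fatty acid carrier of fat and endothelium, was above 1 CPM in STET 3, STET_S100 1, STET_S200 2 and STET_S200 3. Alb, another marker of foreign tissue, was at 8.31, 7.77 and 7.49 CPM in STET_S100 1, STET_S200 2 and STET_S200 3. In the other compared libraries, STET 3 among them, it was at most 0.09 CPM. Where a refit for the libraries high in Fabp4 or for the choroid plexus score turned the sign of a gene or list median, the value is given. Shifts that kept the sign are given for part of the results only. List medians were refitted for part of the lists only. Among those not refitted were CA2 and CA3, subiculum and entorhinal cortex, and endothelium and pericytes.

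No gene passed the threshold for a difference between amygdala stimulation and STET. With edgeR's quasi-likelihood test, 0 of 19492 genes (0%) had an adjusted p below 0.05, and the smallest adjusted p was 0.374. At an unadjusted p below 0.05, 326 genes were higher with amygdala stimulation (1.67%) and 414 were lower (2.12%), 740 in all. In 246 genes (1.26%) each of the 6 amygdala libraries lay above all 3 STET libraries, and in 251 genes (1.29%) each lay below. Of the 12 lower genes of smallest p, 10 encode ribosomal proteins, and the gene of smallest p on the higher side was Neurod2, a neuronal transcription factor. Changes were small: the median absolute log2 fold change was 0.06, beside a median standard error (SE) of 0.09.

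A second test, DESeq2, called 15 of the 14197 genes to which it gave an adjusted p (0.106%), 1 higher and 14 lower. The higher gene was Neurod2. Of the lower genes 10 encode ribosomal proteins (Rpl35a, Rpl37, Rpl37a, Rpl38, Rpl39, Rpl41, Rps21, Rps27, Rps28 and Rps29), and the others were Atp5k, Creb5, Gm43279 and Uchl1. This count depended on single libraries: it was 2 without STET 1, 9 without STET 2 (of which only Rps29 was among the 15), 8 without STET 3, 5 without STET_S100 2 and 5 without STET_S100 3. Rps29 was among the called genes in each of these 5 fits, and Rpl38 and Uchl1 in 3 of them. Without any other single library the count was 10 to 18, and 10 to 13 of the 15 were among those called. edgeR itself called 29 genes when genes with few reads were kept in the fit, 9 of them ribosomal, and 2 genes, Rps29 and Uchl1, when the Control libraries were left out. The fit to the libraries low in Fabp4 alone kept STET 1 and 2, STET_S100 2 and 3, STET_S200 1, and Control 1 and 2. STET_S200 then rested on 1 library, so only effect sizes of that fit are given.

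The gene of smallest p was Rps29, a protein of the small ribosomal subunit. It was counted at 232, 239 and 211 CPM in STET 1 to 3, at 185, 180.3 and 168 CPM in STET_S100 1 to 3 and at 189, 192 and 185 CPM in STET_S200 1 to 3. All 6 amygdala libraries lay below all 3 STET libraries, and the Control libraries, at 190.5, 207 and 228 CPM, reached into the STET range. The log2 fold change was -0.31 ± 0.05 (SE), with an adjusted p of 0.374 with edgeR and of 0.000227 with DESeq2. Against STET it was -0.36 ± 0.06 for STET_S100 and -0.27 ± 0.06 for STET_S200, values that share the STET libraries. The 2 rates differed from each other by 0.09 ± 0.06, with an edgeR adjusted p of 0.976.

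Rpl38, a protein of the large subunit, was at 138, 137 and 126 CPM in STET, 119, 108 and 111 CPM in STET_S100 and 118, 112 and 109 CPM in STET_S200. The groups did not overlap, with the lowest STET library above the highest amygdala library. Its log2 fold change was -0.25 ± 0.04, with an adjusted p of 0.374 with edgeR and 0.00528 with DESeq2. Rps21, of the small subunit, was at 192, 188 and 188 CPM in STET, 177, 157 and 164 CPM in STET_S100 and 173, 163 and 153 CPM in STET_S200, again without overlap, and its log2 fold change was -0.20 ± 0.04. For Rps27 the libraries stood at 158, 153 and 145 CPM in STET, 145, 123 and 128 CPM in STET_S100 and 131, 127 and 116 CPM in STET_S200. Here STET_S100 1 reached the lowest STET library, and the other 5 amygdala libraries lay below all of STET. Its log2 fold change was -0.24 ± 0.05.

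The next genes in this direction were again short ribosomal protein mRNAs. Rpl39 (log2 fold change -0.21 ± 0.05), Rps28 (-0.22 ± 0.05), Rpl37a (-0.20 ± 0.04), Rpl35a (-0.16 ± 0.04), Rpl37 (-0.18 ± 0.04) and Rpl41 (-0.14 ± 0.03) had all 6 amygdala libraries below STET, with edgeR adjusted p of 0.575 to 0.664. Rpl41, which encodes the smallest protein of the ribosome, lay at 210.3 to 221 CPM in STET and 190.0 to 207 CPM with amygdala stimulation. The 12 lowest genes by p also held Snhg8 (-0.24 ± 0.05), a host gene of small nucleolar RNAs, at 16.3 to 17.9 CPM in STET against 14 to 15.4 CPM, and S100a1 (-0.23 ± 0.05), a calcium-binding protein, at 42.8 to 47.6 CPM against 35.2 to 43.9 CPM. Snhg8 did not overlap between the arms, and S100a1 did in STET_S100 1.

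**Figure D1:**
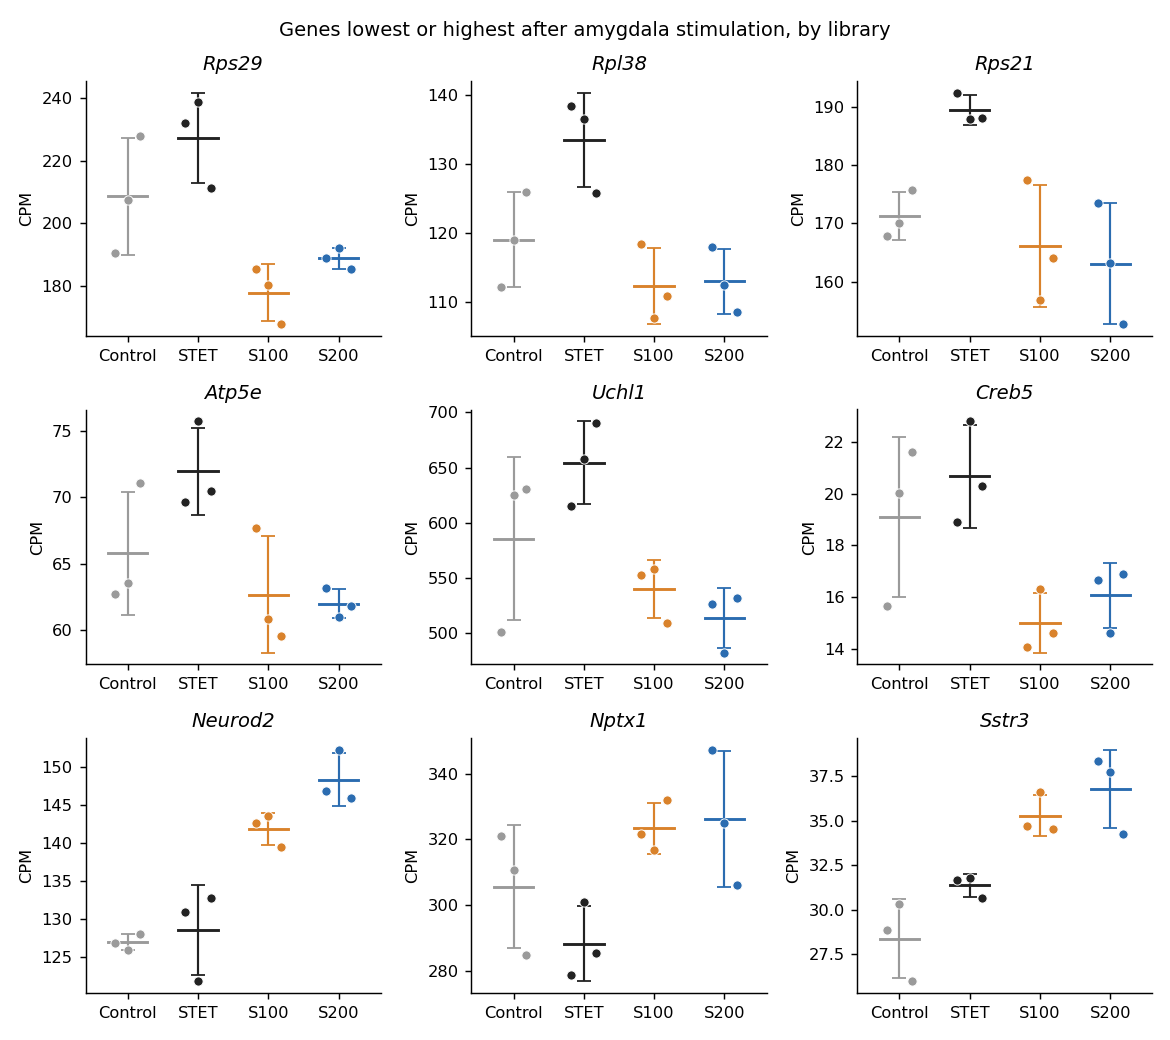
Expression of 9 genes in each library, in CPM on linear axes that do not start at 0; points are libraries, horizontal lines group means and bars the SD over 3 libraries. Rps29, Rpl38, Rps21, Atp5e, Uchl1 and Creb5 are lower in all 6 amygdala libraries (S100 and S200) than in STET, and Neurod2, Nptx1 and Sstr3 are higher in all 6.

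As a family, 79 of 86 ribosomal protein genes tested had a log2 fold change below 0, against 9611 of all 19492 genes. Of the 86, 43 were lower and 0 higher at an unadjusted p below 0.05, beside 2.12% of all genes that were lower, and 22 had all 6 amygdala libraries below STET, beside 1.29% of all genes. The median log2 fold change was -0.08 for the family and 0.00 for all genes tested. It was -0.07 for STET_S100 and -0.08 for STET_S200, both against the same STET libraries. These genes are known from many processed pseudogenes with nearly the same sequence, and the treatment of reads that fit several copies is not given in the sources used here. The level of a single member is therefore uncertain.

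The level of the family also differed among libraries. Each gene's deviation was taken from its own mean over the 9 compared libraries, which leaves Control out. The median over the 86 genes was 0.05, 0.07 and 0.04 (log2) in STET, 0.01, -0.06 and -0.02 in STET_S100 and 0.05, -0.04 and -0.08 in STET_S200. STET_S200 1 thus lay within the STET range, and the other 5 amygdala libraries lay below it. In Control the medians were -0.004, -0.02 and 0.003, also below all 3 STET libraries and within the range of the amygdala libraries. The median fold change kept its sign when each of the 9 libraries was left out, between -0.10 and -0.07. It was -0.06 in the libraries low in Fabp4, where 73 of 86 members were below 0.

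The size of the difference followed annotated transcript length, that of a gene's longest protein-coding transcript, or of its longest where it has none. The transcript expressed in these slices may be shorter. The 9 ribosomal protein genes with transcripts of at most 500 bases had a median log2 fold change of -0.20, the 13 of over 500 to 700 bases -0.11, the 24 of over 700 to 1000 bases -0.08, and the 21 of over 1000 to 1500 bases -0.06. Across 80 of these genes, Spearman's correlation of fold change with length was 0.60, a description across genes that share the same libraries. Other genes showed a part of this trend: the median was 0.01 for 172 genes of at most 500 bases, -0.05 for 191 of over 500 to 700 bases, -0.04 for 509 of over 700 to 1000 bases and 0.01 for 6390 of over 2500 to 5000 bases. Over 14804 genes outside both the ribosomal and oxidative phosphorylation lists the correlation was 0.11. When each library's trend of level on length was taken out, a setting added after the data were seen, the ribosomal median was -0.05, and 70 of 86 genes were below 0.

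**Figure D2:**
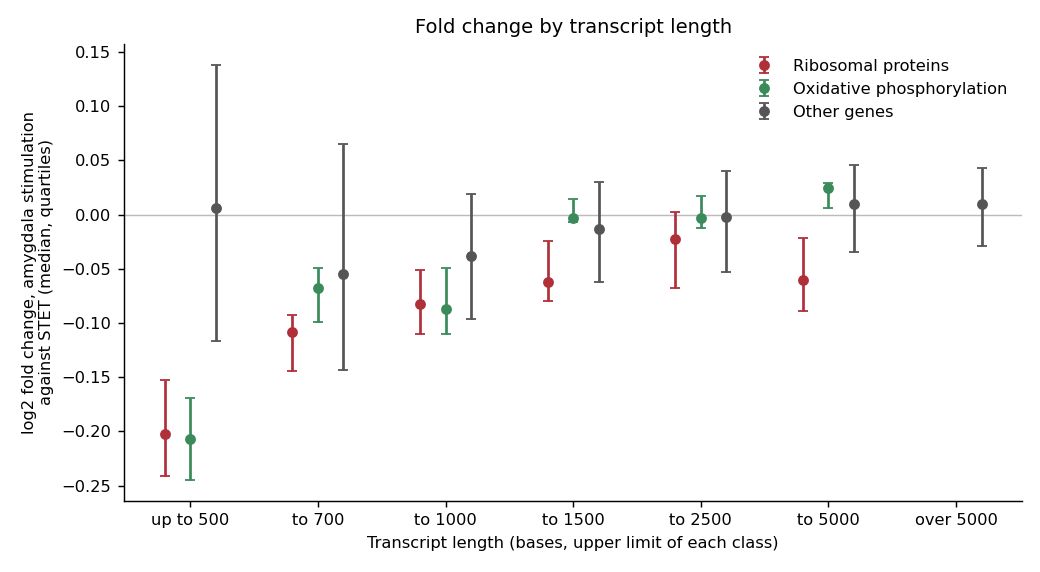
Median log2 fold change of amygdala stimulation against STET by length in bases of the longest annotated transcript. Ribosomal protein, oxidative phosphorylation and other genes whose mean log2 CPM was 0 or more are shown. Each class is marked by its upper limit, bars span the quartiles and groups of under 3 genes are not drawn. Ribosomal protein genes of at most 500 bases lie at a median of -0.20 and other genes of that length at 0.01.

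**Figure D3:**
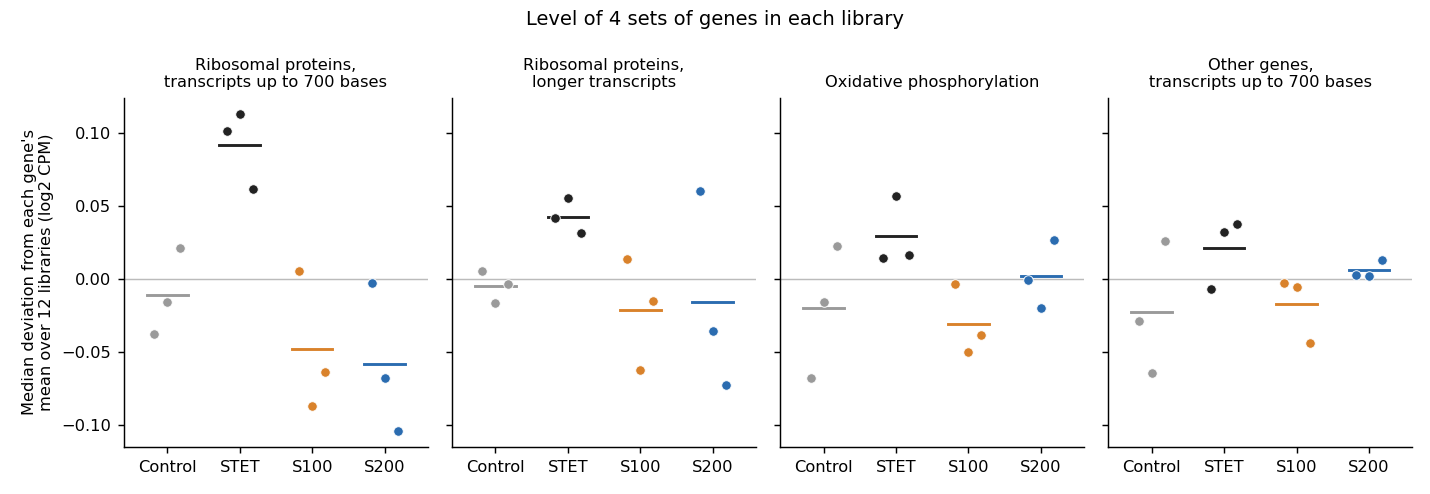
Median deviation (log2 CPM) of 4 sets of genes in each of the 12 libraries, with points for libraries and lines for group means. Deviations are from each gene's mean over the 9 compared libraries, although the axis title names 12. Ribosomal proteins of at most 700 bases lie at 0.06 to 0.11 in STET and at -0.10 to 0.01 with amygdala stimulation, whereas longer ribosomal transcripts and other short transcripts overlap between STET and the amygdala libraries.

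Ribosomal protein mRNAs of mammals carry a run of pyrimidines at their start, through which their translation is regulated, so the annotated start sites of the ribosomal genes among the 12 lower genes named are shown. Of these, 9 had an entry, with 12 sites. The sequences are from RefSeq (GRCm38.p6), 30 bases before and 20 after the annotated start, on the gene's strand, with the longest run of C or T within 20 bases of the start in capitals, and both runs where 2 were equally long.
Rpl38, chr11:114668550-114668599, plus strand: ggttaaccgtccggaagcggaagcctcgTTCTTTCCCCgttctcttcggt
Rps21, site 1, chr2:180257349-180257398, plus strand: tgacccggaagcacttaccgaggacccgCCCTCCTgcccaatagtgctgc
Rps21, site 2, chr2:180257419-180257468, plus strand: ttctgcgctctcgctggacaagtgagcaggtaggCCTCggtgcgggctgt
Rps27, chr3:90213629-90213678, minus strand: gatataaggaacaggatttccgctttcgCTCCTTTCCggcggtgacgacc
Rpl39, chrX:37085203-37085252, minus strand: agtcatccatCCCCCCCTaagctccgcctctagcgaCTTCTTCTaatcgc
Rps28, chr17:33824543-33824592, minus strand: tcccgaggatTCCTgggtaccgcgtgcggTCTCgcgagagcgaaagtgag
Rpl37a, chr1:72711230-72711279, plus strand: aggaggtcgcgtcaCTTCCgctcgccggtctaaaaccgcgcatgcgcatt
Rpl35a, site 1, chr16:33056423-33056472, plus strand: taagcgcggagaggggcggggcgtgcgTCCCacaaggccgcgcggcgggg
Rpl35a, site 2, chr16:33056452-33056501, plus strand: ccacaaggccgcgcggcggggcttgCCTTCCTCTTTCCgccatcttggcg
Rpl35a, site 3, chr16:33056484-33056533, plus strand: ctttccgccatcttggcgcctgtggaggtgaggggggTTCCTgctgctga
Rpl37, chr15:5116583-5116632, plus strand: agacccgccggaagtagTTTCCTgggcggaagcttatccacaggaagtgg
Rpl41, chr10:128549149-128549198, minus strand: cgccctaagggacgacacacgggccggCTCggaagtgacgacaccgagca
A run of at least 6 bases stood at 6 of the 12 sites, in Rpl38, Rps21, Rps27, Rpl39, Rpl35a and Rpl37, and 6 sites had none. In Rpl38, Rps27, 1 site of Rps21 and 1 of Rpl35a, the run held the annotated first base, with 10, 9, 7 and 13 bases. Within the window Rpl39 had 2 runs of 8 bases, 1 on each side of the start, and Rpl37 had 1 of 6 bases upstream. The longest run within the window was of 5 bases in Rpl37a, 4 in Rps28 and 3 in Rpl41. Runs were cut at the edge of the window, and the upstream runs of Rpl39 and Rps28 continue beyond it in a lower-case t. Of the 86 genes, 62 were matched by symbol, with 74 start sites, and 60.8% of these sites held a run of at least 6 C or T within 20 bases on the gene's strand, against 36.7% of the 16632 sites of all tested genes that were matched. For runs of A or G, the same search on the other strand, the shares were 18.9% and 37.5%. A match describes the letters of this window only.

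Oxidative phosphorylation genes encoded in the nucleus leaned the same way with a smaller median. Of 53 tested, 40 were below 0. At an unadjusted p below 0.05, 17 were lower and 0 higher, beside 2.12% and 1.67% of all genes. All 6 amygdala libraries were below STET for 11 members and above it for 2, beside 1.29% and 1.26% of all genes. The median log2 fold change was -0.04 (-0.06 for STET_S100 and -0.03 for STET_S200). It was -0.01 once the length trend was taken out, and -0.03 with the choroid plexus score in the fit, where 9 genes were lower at an unadjusted p below 0.05. Members of at most 1000 bases had medians between -0.21 and -0.07, and the 12 of over 1500 to 2500 bases one of -0.003.

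Atp5e, the epsilon subunit of ATP synthase, was at 69.7, 75.8 and 70.5 CPM in STET, 67.7, 60.8 and 59.5 CPM in STET_S100 and 63.2, 61 and 61.8 CPM in STET_S200. The arms did not overlap, although STET_S100 1 came close to the lowest STET library. The log2 fold change was -0.21 ± 0.05, with an edgeR adjusted p of 0.678. Atp5k, another subunit of the same enzyme, had the largest difference of the named members, -0.28 ± 0.07 (63.5 to 71.4 CPM in STET, 51.5 to 61.3 CPM with amygdala stimulation, edgeR adjusted p = 0.838). Ndufb10 of complex I (-0.12 ± 0.03) and Uqcrb of complex III (-0.12 ± 0.04) were also below STET in all 6 libraries. Of the 13 genes encoded by mitochondrial DNA, 12 were below 0 with a median of -0.06, and none had an unadjusted p below 0.05. mt-Nd2, a complex I subunit, was at 4736 to 5005 CPM in STET and 4057 to 5076 CPM with amygdala stimulation, so that the arms overlapped.

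The other lower genes that DESeq2 called were picked out after their values were seen. Uchl1, a deubiquitinating enzyme abundant in neurons, was at 615, 658 and 690.1 CPM in STET, 553, 558 and 509 CPM in STET_S100 and 527, 482 and 532 CPM in STET_S200. All 6 amygdala libraries lay below STET, and Control spanned both at 501, 625 and 631 CPM. The log2 fold change was -0.31 ± 0.07, with an adjusted p of 0.712 with edgeR and 0.00537 with DESeq2. Uchl1 overlaps an antisense transcript, Uchl1os, and the counting's strand setting is not given in the sources used here. How well the counts separate reads of the pair is therefore uncertain. Creb5, a transcription factor of the CREB family, was at 18.9, 22.8 and 20.3 CPM in STET, 14.1, 16.3 and 14.6 CPM in STET_S100 and 16.7, 14.6 and 16.9 CPM in STET_S200, a log2 fold change of -0.41 ± 0.09 without overlap. Gm43279, a predicted gene, had a log2 fold change of -0.51 ± 0.11 at 8.22 to 9.47 CPM in STET and 5.18 to 7.68 CPM with amygdala stimulation.

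At the higher end, Neurod2 had the smallest p. It encodes a basic helix-loop-helix factor of glutamatergic neurons that regulates synapse formation. Its level was 131, 122 and 133 CPM in STET, 143, 143 and 139 CPM in STET_S100 and 147, 152 and 146 CPM in STET_S200. All 6 amygdala libraries lay above STET and above Control, which was at 127, 126 and 128 CPM. The log2 fold change was 0.17 ± 0.03, with an adjusted p of 0.518 with edgeR and 0.00537 with DESeq2. It was 0.14 ± 0.04 for STET_S100 and 0.21 ± 0.04 for STET_S200 against the shared STET libraries, and the rates differed by 0.06 ± 0.04 (edgeR adjusted p = 0.967). Of the 9 markers of pyramidal neurons, Neurod2 was the only one past an unadjusted p of 0.05, and the median of the 9 was 0.02.

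Nptx1, a neuronal pentraxin that gathers AMPA receptors at synapses, was at 279, 301 and 285 CPM in STET, 322, 317 and 332 CPM in STET_S100 and 347, 325 and 306 CPM in STET_S200. The arms did not overlap, and the log2 fold change was 0.17 ± 0.04, with an edgeR adjusted p of 0.838. Nptx2, its activity-regulated relative, lay at 83 to 103 CPM in STET and 89 to 111 CPM with amygdala stimulation, with overlap, and its log2 fold change was 0.09 ± 0.12. Sstr3, a somatostatin receptor of neuronal cilia, was at 31.7, 31.8 and 30.7 CPM in STET, 34.7, 36.6 and 34.6 CPM in STET_S100 and 38.4, 37.8 and 34.3 CPM in STET_S200. Its 6 amygdala libraries lay above all STET libraries and above Control (26 to 30.3 CPM), a log2 fold change of 0.20 ± 0.05. Lgr5, a receptor for R-spondins, had the largest value among the 12 higher genes named, 0.61 ± 0.15, at only 1.48 to 2.13 CPM in STET and 2.49 to 3.16 CPM with amygdala stimulation.

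Of the other higher genes of smallest p, Ahdc1 (0.15 ± 0.04), the CXXC zinc finger gene Cxxc5 (0.17 ± 0.04), the ephrin Efna3 (0.13 ± 0.04), the Nogo receptor relative Rtn4rl1 (0.18 ± 0.05), the protocadherin Pcdhac2 (0.15 ± 0.04) and the axon guidance gene Islr2 (0.15 ± 0.04) had all 6 amygdala libraries above STET. The forkhead factor Foxo6 (0.21 ± 0.06) and Pwwp2b (0.35 ± 0.10) had 4 and 5 of 6 above. Their edgeR adjusted p ran from 0.766 to 1. Of 55 clustered protocadherins, cell adhesion proteins that give neurons surface identities, 32 were above 0 with a median of 0.01, so that Pcdhac2 and Pcdha6 (0.30 ± 0.12) did not stand for the whole cluster.

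Immediate early genes, the class that tetanization is known to activate, showed no difference between the arms beyond the spread of the libraries. Of 33 tested, 28 were below 0, 0 passed the threshold, and in none did the arms separate. At an unadjusted p below 0.05, 1 was lower, beside 2.12% of all genes. The median was -0.09 (-0.04 for STET_S100 and -0.12 for STET_S200). When 1 library was left out it was -0.005 without STET_S100 1, -0.02 without STET 2 and -0.15 without STET_S100 2, and between these values without any other. In the libraries low in Fabp4 it was -0.03, and with the choroid plexus score in the fit -0.03.

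Arc, a synaptic protein that drives removal of AMPA receptors, was at 297, 285 and 191 CPM in STET, 170.0, 399 and 241 CPM in STET_S100 and 277, 193 and 215 CPM in STET_S200, beside 94.1, 115 and 80.5 CPM in Control. All 9 stimulated libraries lay above Control, and the STET_S100 libraries spanned the whole range of the others, with the lowest in STET_S100 1 and the highest in STET_S100 2. The log2 fold change was -0.05 ± 0.28. Npas4, an activity-dependent transcription factor, was at 251, 223 and 155 CPM in STET, 114, 326 and 177 CPM in STET_S100 and 195, 113 and 178 CPM in STET_S200, with a log2 fold change of -0.20 ± 0.33. Its highest value was again in STET_S100 2, and STET_S100 1 and STET_S200 2 were lowest. The SE for Arc of 0.28 and for Npas4 of 0.33 exceeded those of the ribosomal genes several times over.

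Fos was at 285, 295 and 208 CPM in STET, 171, 319.8 and 261 CPM in STET_S100 and 281, 217 and 244 CPM in STET_S200, a log2 fold change of -0.08 ± 0.20. Fosb (-0.11 ± 0.12) and Junb (-0.03 ± 0.16), which pair in AP-1, overlapped between the arms as well. Among zinc finger factors, Egr1 (-0.04 ± 0.17), Egr2 (-0.08 ± 0.22) and Egr4 (-0.09 ± 0.15) lay within 0.10 of 0. The nuclear receptors Nr4a1 (-0.12 ± 0.21) and Nr4a2 (-0.01 ± 0.06), the phosphatase Dusp1 (-0.10 ± 0.12), the stress-response gene Gadd45g (-0.13 ± 0.12) and the antiproliferative gene Btg2 (-0.05 ± 0.25) did not separate either. Each of these had an edgeR adjusted p of 1. The signs for Arc, Fos, Junb, Egr1, Egr2, Egr4, Nr4a2 and Btg2 turned in at least 1 other fit or without 1 library.

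Of the late-response genes, Bdnf, a neurotrophin, was at 55.5, 78.9 and 71.2 CPM in STET, 59, 63.9 and 76.9 CPM in STET_S100 and 73.3, 64 and 49.5 CPM in STET_S200, with a log2 fold change of -0.09 ± 0.21. Homer1, a postsynaptic scaffold, had 0.05 ± 0.07 and Inhba, an activin subunit, 0.15 ± 0.35, and these 3 signs also turned without 1 library. The list of 29 delayed activity-regulated genes had 15 members above 0 and a median of 0.00. Igfbp5, a binding protein of insulin-like growth factors, lay at 108 to 120.3 CPM in STET and 96.7 to 116 CPM with amygdala stimulation (-0.10 ± 0.05), and Lpl, a lipase, at 40.8 to 50.1 CPM and 41.1 to 54.5 CPM (0.13 ± 0.07). Both overlapped.

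**Figure D4:**
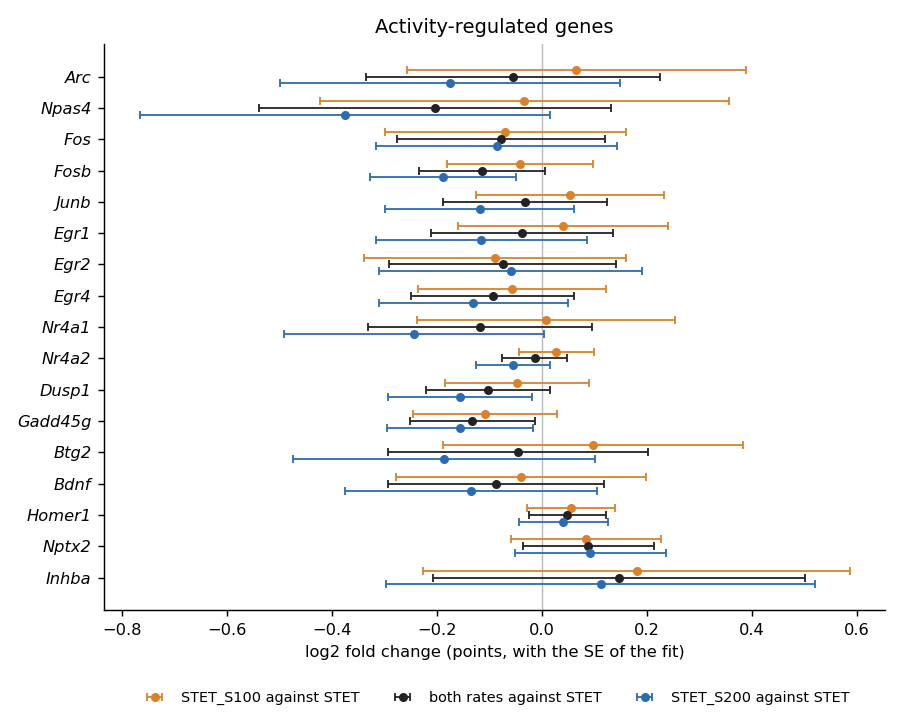
Log2 fold changes of 17 activity-regulated genes against STET for STET_S100, STET_S200 and both rates together; points are fitted values and bars their SE, and the 3 values of a gene share the STET libraries. The value for both rates lies between -0.20 (Npas4) and 0.15 (Inhba), and no gene passes the threshold.

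The single immediate early gene with an unadjusted p below 0.05 was Per1, which is also a clock and glucocorticoid-responsive gene. It was at 169.6, 170.1 and 172 CPM in STET, 148, 178 and 167 CPM in STET_S100 and 143, 139 and 158 CPM in STET_S200. The log2 fold change was -0.14 ± 0.05 for both rates, -0.05 ± 0.06 for STET_S100 and -0.22 ± 0.06 for STET_S200, and STET_S100 2 was the highest of the 9 libraries. In the list of 18 circadian clock genes, 3 were lower at an unadjusted p below 0.05, beside 2.12% of all genes, and the median was -0.04. The 3 were Per1, Per2 (-0.13 ± 0.06) and the clock-controlled repressor Ciart (-0.28 ± 0.11). Of 16 glucocorticoid-responsive genes 11 were below 0, among them Cdkn1a (-0.13 ± 0.05), a cell cycle inhibitor. In the heat shock and stress list of 22 genes, only the chaperonin subunit Hspe1 was below STET in all 6 libraries, beside 1.29% of all genes. It was at 62.3 to 66.2 against 54.6 to 60.2 CPM (-0.12 ± 0.04).

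Lists of neuronal excitability and synapse genes had medians close to 0, with most members above 0 in some lists and not in others, and no member passed the threshold. Of 25 genes in a list of voltage-gated calcium, sodium and pacemaker channels, 22 were above 0 with a median of 0.03, and 0 had an unadjusted p below 0.05. Hcn2, a pacemaker channel (0.08 ± 0.04), and Scn1a, a sodium channel (0.06 ± 0.04), were the members of smallest p. Of 30 plasticity kinases and phosphatases 25 were above 0 with a median of 0.02. The member of smallest p was Camk4, a nuclear calcium-dependent kinase (48.7 to 53.2 CPM in STET, 51.3 to 57.9 CPM with amygdala stimulation, 0.11 ± 0.04), and the largest log2 fold change was that of Prkca, a protein kinase C, at 0.20 ± 0.09 (155 to 204 CPM in STET, 177 to 224 CPM with amygdala stimulation). Of 33 genes of presynaptic release 24 were above 0 with a median of 0.02, with Slc17a7, the vesicular glutamate transporter, at 0.07 ± 0.04 and the active zone protein Erc2 at 0.09 ± 0.04. In the libraries low in Fabp4 the medians of the channel and the presynaptic lists were -0.0026 and -0.0014, with the sign turned. Longer transcripts in general had medians of about 0.01.

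Among potassium channels, 18 of 29 were above 0. Kcnab1, an auxiliary subunit, lay above STET in 5 of the 6 amygdala libraries, with a log2 fold change of 0.09 ± 0.04. Of 21 postsynaptic scaffold genes 13 were above 0, with the adhesion protein Nlgn1 at 0.10 ± 0.04. Ionotropic glutamate receptors showed little: 3 of 7 NMDA receptor subunits and 12 of 17 AMPA receptor genes were above 0, with medians of -0.0008 and 0.01. Of 14 GABA receptor genes 9 were above 0. Gabra5, a subunit of extrasynaptic receptors in the hippocampus, had all 6 amygdala libraries above STET (163, 164 and 171 CPM in STET, 176, 173 and 178 CPM in STET_S100, 179.6, 183 and 180.2 CPM in STET_S200), a log2 fold change of 0.10 ± 0.04. Gabbr2, of the metabotropic receptor, was at 0.08 ± 0.04.

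Of 21 receptors for neuropeptides and opioids 12 were above 0, with a median of 0.07. Sstr3 and Oprm1 had all 6 amygdala libraries above STET, beside 1.26% of all genes. Oprm1, the mu opioid receptor, was at 2.36, 2.27 and 2.15 CPM in STET, 2.53, 2.54 and 3.24 CPM in STET_S100 and 3.23, 2.6 and 2.84 CPM in STET_S200, a log2 fold change of 0.32 ± 0.14. Control lay above STET at 3.97, 3.06 and 3.12 CPM. Npy1r, a receptor for neuropeptide Y, went the other way, at 35.5 to 36.8 CPM in STET and 31 to 35.9 CPM with amygdala stimulation (-0.12 ± 0.05). Receptors of modulators of arousal gave single members with an unadjusted p below 0.05: Adra2c, an adrenergic receptor (0.17 ± 0.06), Chrm4, a muscarinic receptor (0.16 ± 0.06), and Htr1b, a serotonin receptor (-0.26 ± 0.11). Their edgeR adjusted p was 1.

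In other neuronal lists, Sorcs2, a sorting receptor that binds proneurotrophins, lay above STET in all 6 libraries (91.8 to 96.4 against 97.9 to 103 CPM, 0.09 ± 0.03). Of 27 genes of synaptic adhesion and extracellular matrix 1 did so, Lrrtm1 (0.09 ± 0.04), beside 1.26% of all genes. Of these 27, 12 were above 0 and 15 below, with a median of -0.01. The 3 at an unadjusted p below 0.05 were all higher, beside 1.67% of all genes. They were Lrrtm1, Plxna4, a semaphorin receptor (0.09 ± 0.04), and Hapln4, of perineuronal nets (0.11 ± 0.05), and the last 2 overlapped with STET. Hdac4, a histone deacetylase that shuttles between cytoplasm and nucleus with activity, was at 0.12 ± 0.04, with 5 of 6 libraries above STET, while 9 of 18 genes of its list were above 0. Of 14 long noncoding RNAs 12 were below 0 with a median of -0.09, among them Pantr1 (-0.18 ± 0.06). Of 31 proteasome subunits 21 were above 0, with Psmd2 above STET in all 6 libraries (0.06 ± 0.03).

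**Figure D5:**
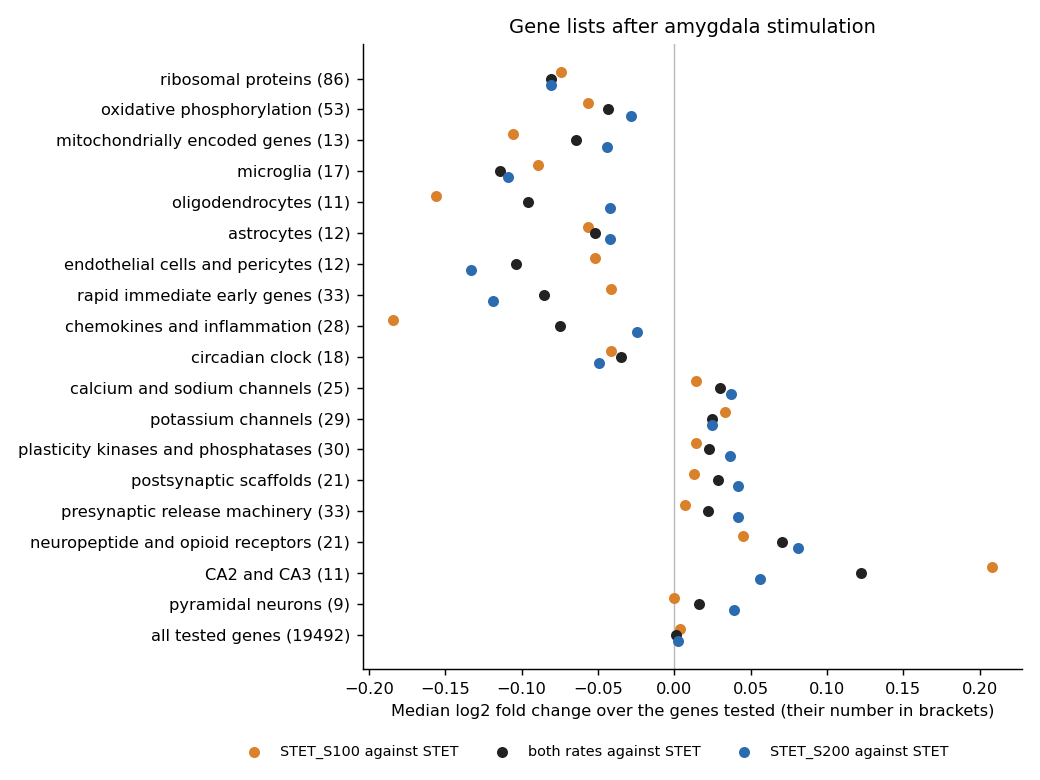
Median log2 fold change over the tested genes of 18 lists and of all genes, against STET, for STET_S100, STET_S200 and both rates together; points are medians, and the 3 values of a list share the STET libraries. Ribosomal proteins lie at -0.08, microglial markers at -0.11 and all tested genes at 0.00.

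Most markers of microglia, astrocytes and oligodendrocytes had log2 fold changes below 0. In pooled tissue, fewer cells of a type and less RNA per cell cannot be told apart. Of 17 microglial markers 15 were below 0, 4 were lower at an unadjusted p below 0.05 (2.12% of all genes), and 2 had all 6 amygdala libraries below STET (1.29% of all genes), with a median of -0.11. Their summed level was 396 to 431 CPM in STET and 356 to 428 CPM with amygdala stimulation. Tyrobp, a signalling adaptor, was at 10.7, 11.6 and 11.7 CPM in STET, 10.3, 10.1 and 9.86 CPM in STET_S100 and 9.96, 9.02 and 9.81 CPM in STET_S200 (-0.20 ± 0.06), and Itgam, an integrin, at 3.3 to 3.8 and 2.56 to 3.2 CPM (-0.28 ± 0.13), both without overlap. P2ry12, a purine receptor (-0.20 ± 0.09), and Aif1, an actin-binding protein (-0.27 ± 0.12), had 5 of 6 below. The median was -0.05 without STET 3, -0.06 without STET_S200 2, -0.07 without STET_S200 3 and -0.01 in the libraries low in Fabp4.

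All 12 astrocyte and all 11 oligodendrocyte markers were below 0, with medians of -0.05 and -0.10, and none had an unadjusted p below 0.05. Astrocyte markers summed to 8063 to 8569 CPM in STET and 7479 to 8856 CPM with amygdala stimulation, and oligodendrocyte markers to 3086 to 3593 and 2768 to 3732 CPM, so both overlapped. The gap junction gene Gja1 was at -0.10 ± 0.07, the calcium-binding S100b at -0.09 ± 0.05, and the myelin genes Cnp at -0.10 ± 0.05 and Mog at -0.12 ± 0.09. The astrocyte median was 0.01 in the libraries low in Fabp4. Of 28 chemokine and inflammation genes 25 were below 0 with a median of -0.08, which was 0.01 without STET 3 and 0.07 in the libraries low in Fabp4. Cxcl2 (20.9, 23.9 and 24.8 CPM in STET, 15.6, 20.5 and 15.5 CPM in STET_S100, 23.3, 22.5 and 19.4 CPM in STET_S200) and Tnf (-0.27 ± 0.11) were lower at an unadjusted p below 0.05. Cxcl2 had a log2 fold change of -0.43 ± 0.11 for STET_S100 and -0.09 ± 0.11 for STET_S200. Genes of reactive astrocytes did not share this direction: of 18, 10 were above 0, with a median of 0.02. The member of smallest p was Lcn2, an acute-phase gene, at 2.78 to 4.4 CPM in STET and 1.08 to 3.11 CPM with amygdala stimulation (-0.86 ± 0.35).

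Of 12 markers of endothelium and pericytes 8 were below 0 and 4 above, with a median of -0.10 and none at an unadjusted p below 0.05. Flt1, a VEGF receptor of endothelium, was the only one of the 12 below STET in all 6 libraries, beside 1.29% of all genes (31.9 to 32.7 against 27.2 to 31.8 CPM, -0.12 ± 0.07). Of 11 markers of CA2 and CA3, 10 were above 0 with a median of 0.12 (0.21 for STET_S100 and 0.06 for STET_S200), and their sum was 276 to 320 CPM in STET and 294 to 323 CPM with amygdala stimulation. Necab2, a calcium-binding protein of CA2, was at 0.11 ± 0.05. Of 9 markers of subiculum and entorhinal cortex 8 were below 0 with a median of -0.12, and Rspo2, the amygdala marker of smallest p, was at 33 to 38.3 CPM in STET and 28.8 to 37.9 CPM with amygdala stimulation (-0.16 ± 0.07). The part of dissection in these values was not tested. Ttr, the thyroid hormone carrier of the choroid plexus, was at 254, 2243 and 434 CPM in STET, 1841, 2798 and 12.2 CPM in STET_S100 and 5.14, 1.73 and 40.6 CPM in STET_S200. Its log2 fold change of -2.66 ± 1.40 joins 0.67 ± 1.63 for STET_S100 and -5.99 ± 2.08 for STET_S200, so that the mean of both rates does not describe it.

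Whether the 2 rates had the same effect was tested directly. Between STET_S200 and STET_S100, 0 genes (0%) passed with edgeR, the smallest adjusted p was 0.956, and 1014 genes (5.20%) had an unadjusted p below 0.05. DESeq2 called 5 (0.0257%), all lower in STET_S200, 3 of them markers of the choroid plexus. Against STET, edgeR called 0 genes (0%) for STET_S100 and 0 (0%) for STET_S200, with smallest adjusted p of 0.614 and 0.857. At an unadjusted p below 0.05 these contrasts had 615 (3.16%) and 888 genes (4.56%). DESeq2 called 1 gene for STET_S100 (0.00513%), Rps29, and 16 for STET_S200 (0.107%). Those 16 held all 5 genes called between the rates, Clic6, Tmem72, Wdr86, Ttr and Kcnj13. Their DESeq2 log2 fold changes for STET_S200 against STET were -6.93 to -5.78. With edgeR and its filter on low counts, no gene thus differed between the rates, which does not show that they act alike, and the count was higher in other fits: edgeR called 98 without the filter and 8 without STET_S100 3.

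The genes of smallest p between the rates included 2 induced by NF-kappa-B. Tnfaip3, an inhibitor of this pathway, was at 36.5, 41.8 and 42.5 CPM in STET_S100 and 49.8, 53.9 and 44.5 CPM in STET_S200, without overlap, and the difference of STET_S200 from STET_S100 was 0.30 ± 0.07 (log2, edgeR adjusted p = 0.956). Tnfaip2 was at 11.3, 12.1 and 13 and 18.1, 19.1 and 13.9 CPM, a difference of 0.49 ± 0.12. In STET, Tnfaip3 was at 44.1, 47 and 46.2 CPM and Tnfaip2 at 14.3, 18.1 and 17.2 CPM, overlapping with STET_S200. The cadherin Cdh11 (0.15 ± 0.04), the long noncoding RNA Dubr (0.31 ± 0.08) and the predicted gene Gm12408 (0.85 ± 0.23) were also higher in STET_S200. On the lower side were Wnk4, a kinase that regulates ion transport (-1.42 ± 0.31), Cux2, a factor of upper cortical layers (-0.27 ± 0.06), Marveld2, of tight junctions (-1.08 ± 0.26), Mpp7 (-0.56 ± 0.15) and Iqub (-1.36 ± 0.34). Wnk4 and Iqub were highest in STET_S100 2, which had the highest choroid plexus sum of the 9 libraries, and their order in STET_S100 was that of this sum. Its part in these values was not tested.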

How the data were processed

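The authors deposited 1 table of read counts per Ensembl gene ID, whole numbers with no scaling and 1 column per sample. The submitters' processing notes name HTSeq 0.11.2, STAR 2.7.1a and Trimmomatic 0.39, beside limma and R 4.0.2. Per the labels, the libraries were directional, from poly(A) RNA, with 150 bp paired-end reads. Settings, genome build, annotation and strand treatment were not given in the sources used here. Of 55471 IDs 55144 had a symbol.

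Counts were scaled by TMM. The test was edgeR's quasi-likelihood test (edgeR 4.0.16, R 4.3.3, robust dispersion) on a model of the 4 groups over all 12 libraries, leaving 8 residual degrees of freedom. The contrast was the mean of STET_S100 and STET_S200 minus STET. Genes were kept (filterByExpr) where at least 3 libraries, the size of a group, reached the CPM that matches 10 reads at the median library total. These libraries could belong to different groups. A total of at least 15 reads was also required, and 19492 genes passed. The p-values were adjusted over all of these by the Benjamini-Hochberg method, and the threshold was 0.05. Fold changes carry the SE of the fit, and CPM values use TMM-scaled library totals. DESeq2 1.42.0 and limma 3.58.1 (voom) gave alternative tests. Total counts of 36.3 to 52.8 M set the precision, and reads without molecular identifiers are not independent molecules. Transcript lengths are from GENCODE M21, matched for 19462 tested genes. The longest protein-coding transcript of a gene was used, or its longest transcript where none is protein-coding. The test was checked on simulated counts of 19217 genes. It recovered 78% of 100 genes changed 1.5-fold and 94% of 100 changed 2-fold, with 15 false calls. Smaller changes, such as those of the ribosomal protein genes, were not simulated.

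The members, the 48 gene lists and the tests were chosen with earlier results of these data known. The named genes are the 12 higher and 12 lower genes of smallest p whose mean log2 CPM was 0 or more, a panel of activity-regulated genes, up to 4 members of smallest p in a list, and 5 genes in each direction between the rates. Predicted genes were named only among the first 3 of a direction. Not every gene that the rule allows is reported here. Within groups, the chi-square between paired count columns was 5.18 to 21.5 per degree of freedom, so none was a duplicate. Alternatives were other scalings, filters, tests and thresholds, terms for Fabp4 and choroid plexus RNA, the replicate block, the compared groups alone, 1 coefficient for the 6 amygdala libraries, and leaving out each library. Length offsets and the repeats of DESeq2 were added after the data were seen.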

Additional observations from a re-analysis of the deposited data

Results flagged for a closer look

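Of 100 measures tried over the 6 amygdala libraries, 7 had a library whose gap to its nearest neighbour exceeded 0.625 of the range of the 6, and chance gives about 1 in 20. STET_S200 3 was highest for Mog, at 39.3 CPM against 33.5 CPM in the next library, highest for Scn1a, at 140.0 against 130.4 CPM, and lowest for Hdac4, at 78.5 against 84.4 CPM. STET_S200 1 was highest for Cxxc5, at 48.2 against 45.2 CPM, and for Erc2, at 217 against 202 CPM. STET_S100 2 was highest for Maff, a small Maf transcription factor, at 28.3 against 25.6 CPM, and STET_S100 3 was lowest for Kcnab1, at 95.9 against 103 CPM. No gene differed between the 2 amygdala rates at an edgeR adjusted p below 0.05, and no expression data other than the count table were used.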

How the results depend on the processing

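The count of 0 genes with edgeR held under RLE and upper quartile scaling, a mean count filter of 10 and limma-voom with and without quality weights. It held without robust dispersion, with 1 coefficient for the 6 amygdala libraries, with length offsets and at a threshold of 0.1. For amygdala stimulation against STET it also held without any single library. Without the filter on low counts the counts were 29 for both rates against STET, 98 for STET_S200 against STET_S100, 22 for STET_S100 against STET and 34 for STET_S200 against STET. DESeq2 gave 15, 5, 1 and 16 in the same order. The compared groups alone gave 2 for both rates against STET, the choroid plexus covariate gave 1 (Sulf1), and the Fabp4 term gave 1 (Alb) in each of the 3 contrasts with STET. Among the compared libraries high in Fabp4, Alb was at 0.09 CPM in STET 3 and at 7.49 to 8.31 CPM in those with amygdala stimulation. With 1 library left out, STET_S200 against STET_S100 gave 0 to 8 genes, with 8 without STET_S100 3. The cause of these changes was not tested.

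Replicate numbers were not taken to pair the samples, and whether they do was left undecided. Each library's deviations from its group mean were correlated between libraries of the same number. The correlation was over 0.1 in 2 of 9 pairs among the compared groups (-0.443 to 0.529), and in 8 of 18 when pairs with Control were included. Between compared libraries of different numbers it reached from -0.581 (STET 2 with STET_S100 3) to 0.537 (STET 1 with STET_S100 3). With the replicate block edgeR called 0 genes in all 4 contrasts, with a smallest adjusted p of 0.288 for both rates against STET, and DESeq2 called 10.

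Of 98 genes, 87 kept their sign in all settings. Some of these still moved, P2ry12 between -0.25 and -0.06, Fosb between -0.18 and -0.003 and Ttr between -3.88 and -0.32. Of 2352 values, 38 were reversed. With the Fabp4 term the log2 fold change was 0.0372 for Arc, 0.00273 for Junb, 0.0169 for Egr1 and 0.0315 for Btg2. With the choroid plexus covariate it was 0.0545 for Arc, 0.0115 for Junb and 0.0634 for Btg2. In the libraries low in Fabp4 alone it was 0.0285 for Arc, 0.0815 for Junb, 0.0649 for Egr2, 0.0326 for Egr4, 0.0461 for Nr4a2, 0.0602 for Btg2 and 0.0938 for Bdnf, and list medians were -0.00257 for calcium and sodium channels, -0.00139 for presynaptic release, 0.00914 for astrocytes and 0.0726 for chemokines. With 1 library left out the ranges were -0.253 to 0.0689 for Arc, -0.221 to 0.0299 for Fos, -0.149 to 0.0584 for Junb, -0.152 to 0.0583 for Egr1, -0.195 to 0.0603 for Egr2, -0.206 to 0.00124 for Egr4, -0.0388 to 0.0267 for Nr4a2, -0.224 to 0.0592 for Btg2, -0.219 to 0.0255 for Bdnf, -0.0312 to 0.0949 for Homer1, -0.0602 to 0.313 for Inhba and -0.172 to 0.00636 for the chemokine median. The precision is limited by 3 STET libraries, which every contrast with STET shares.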
